A study of Mus musculus with 16 samples.

Results

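The cytokines described here are 10 secreted factors, receptors and inhibitors of the IL-1 and IL-6 families. They were taken by symbol from the 49139 named genes of both count tables: Il33, Il1a, Il1b and Il18 (IL-1 family ligands), Il1rl1 (the IL-33 receptor), Il1rn and Il18bp (inhibitors), and Il6, Lif and Il11 (IL-6 family ligands). All 10 were found in both tables. Expression was measured by bulk RNA-seq of 16 libraries of cells sorted from 4T07 tumours. The 4T07 line is a mouse mammary carcinoma line, and here it had been transduced to make either GFP or mCherry. Jedi T cells carry a receptor for a peptide of GFP, so the mCherry cells of the same tumour were not their target and served as the paired comparison for the GFP cells that survived.

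The hosts were female hybrids of Balb/cJ x C57BL/6J, and treated tumours were started from 250000 GFP and mCherry cells, mixed 1:1, in a mammary fat pad. PD1KO Jedi T cells, 7000000 per mouse, were given by tail vein on day 7 or on day 15, and the tumours were taken 7 days after that. The groups were day 7 GFP cells, day 7 mCherry cells, day 15 GFP cells and day 15 mCherry cells (n = 3 each). The control group was mCherry cells of tumours with no GFP cells and no Jedi injection (n = 4). DAPI and a CD45 antibody were used as stains, but the labels give neither the sorting gate nor the age of the mice. The labels do not say whether the transduced lines were clones. No group held GFP cells without Jedi T cells, so reporter and targeting by T cells cannot be told apart. Rose and fell stand below for higher and lower in GFP cells. Each treated tumour gave 1 GFP and 1 mCherry library, with day 7 tumours numbered 2, 3 and 4 as in the count table, and p-values measure the spread between these tumours only. Run 1 held the 6 libraries of day 7 and run 2 the other 10, so day of injection and run cannot be told apart, and the control group stands beside the day 15 groups only.

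Named genes received between 9412040 and 32808354 counts per library, and the 10 cytokines together took 0.0165% to 0.0394% of them. Counting error was therefore small for Il18bp, Lif and Il11, with up to 3560, 5174 and 3977 counts in a library, and large for Il1rl1, Il1a and Il6. Counts do not measure the spread between tumours. Of 8 carcinoma markers, the keratin Krt8 averaged 372 to 833 CPM (counts scaled to the library's size, with TMM factors within a run) in the 5 groups, whereas Epcam did not pass 2.61 CPM and Krt14 was at 0 in 6 of 16 libraries. On each day Krt8 and Krt18 were lower and Cdh1 was higher in GFP cells by the test used below. On day 7, Krt8 averaged 431 CPM in GFP and 833 CPM in mCherry cells, Krt18 averaged 116 CPM and 390 CPM, and Cdh1 averaged 26.1 CPM and 6.88 CPM in the same groups. The libraries of tumour 4 of day 7 stood apart: chi-square per degree of freedom was 92.1 and 88.1 between its mCherry cells and those of tumours 2 and 3, and 10.5 between those of tumours 2 and 3. Other cells' transcripts were also present. The sum of 12 macrophage markers was 104 to 170 CPM in day 7 GFP libraries and 608 to 855 CPM in day 7 mCherry libraries. The same sum was 56.1 to 73.0 CPM in day 15 GFP, 87.7 to 109 CPM in day 15 mCherry and 78.3 to 198 CPM in control libraries. Cd14 made up most of it in the day 15 groups, and the other 11 markers summed to at most 21.7 CPM in day 15 GFP, 19.1 to 27.9 CPM in day 15 mCherry and 43.9 to 131 CPM in control libraries. Ptprc, which encodes CD45, stayed at or below 10.4 CPM in every library, and the sum of 10 T and NK cell markers stayed at or below 6.23 CPM.

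IL-1 family cytokines are alarm signals of injured or infected tissue. IL-1α, IL-1β, IL-18 and IL-33 bind paired receptors that share the adaptor MyD88 and, through IRAK kinases and TRAF6, switch on NF-kB and AP-1 target genes. IL-1β and IL-18 are made as precursors that caspase-1 cuts within inflammasomes, and IL-1RN and IL-18BP block their cytokines from outside the cell. IL-6, LIF and IL-11 each bind a receptor chain that pairs with gp130, the product of Il6st. They signal through JAK kinases and STAT3, with SOCS proteins as feedback inhibitors.

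On GRCm38 the IL-1 ligand genes lie at chr19:29925114-29960718 on the plus strand (Il33), chr2:129299610-129309972 on the minus strand (Il1a), chr2:129364570-129371139 on the minus strand (Il1b) and chr9:50554827-50581840 on the plus strand (Il18). The receptor gene Il1rl1 lies at chr1:40429570-40465415 on the plus strand. The inhibitor genes lie at chr2:24336853-24351494 on the plus strand (Il1rn) and chr7:102014885-102018690 on the minus strand (Il18bp). The IL-6 family genes lie at chr5:30013114-30019981 on the plus strand (Il6), chr11:4257557-4272514 on the plus strand (Lif) and chr7:4772373-4782859 on the minus strand (Il11). Annotated exons of the opposite strand cover 11.2% of the exon bases of Il1a (Gm14023), 1.31% of those of Il1b (Il1bos) and 2.64% of those of Il18bp (Numa1). Whether reads were counted by strand is not stated, so reads from these overlaps cannot be assigned to one gene.

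Promoters of the 10 genes (250 bases before to 50 after each start, 15 windows, RefSeq on GRCm38.p6) were searched on both strands for 4 motifs. The AP-1 motif TGANTCA was found in 5 of the 15 windows, against 7.81% of all 32851 windows. These windows belong to 5 genes, namely Il1a, Il1rn, Il6, Lif and Il11. The NF-kB consensus was found in 2 of the 15 windows, those of Il6 and Lif, against 8.46% of all windows. The interferon-stimulated response element (GAAA, any 2 bases, GAAA) and the gamma-activated sequence TTCNNNGAA were found in none of the 15 windows. Over all windows their shares were 3.44% and 8.30%, and 15 windows are too few to tell a count of 0 from these shares. No matches overlapped. The 4 windows below are those of the 3 IL-6 family ligands and of Il18bp, the cytokine gene that was higher in GFP cells on both days. They are printed 5′ to 3′ on the gene's strand, with the motif letters in capitals, at chr5:30012864-30013163 plus for Il6, chr11:4257318-4257617 plus for Lif, chr7:4778092-4778391 minus for the second window of Il11 and chr7:102018183-102018482 minus for Il18bp.
Il6: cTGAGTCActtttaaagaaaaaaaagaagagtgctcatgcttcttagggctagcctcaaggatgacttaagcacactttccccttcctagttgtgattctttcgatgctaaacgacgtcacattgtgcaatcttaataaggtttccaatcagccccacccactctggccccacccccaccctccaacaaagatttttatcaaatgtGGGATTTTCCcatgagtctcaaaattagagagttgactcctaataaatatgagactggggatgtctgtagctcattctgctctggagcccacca
Lif: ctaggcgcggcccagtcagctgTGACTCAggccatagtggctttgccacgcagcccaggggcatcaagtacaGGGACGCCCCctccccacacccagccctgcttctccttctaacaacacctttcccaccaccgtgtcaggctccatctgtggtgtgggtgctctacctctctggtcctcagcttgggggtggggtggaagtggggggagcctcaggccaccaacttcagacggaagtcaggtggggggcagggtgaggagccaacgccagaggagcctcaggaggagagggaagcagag
Il11: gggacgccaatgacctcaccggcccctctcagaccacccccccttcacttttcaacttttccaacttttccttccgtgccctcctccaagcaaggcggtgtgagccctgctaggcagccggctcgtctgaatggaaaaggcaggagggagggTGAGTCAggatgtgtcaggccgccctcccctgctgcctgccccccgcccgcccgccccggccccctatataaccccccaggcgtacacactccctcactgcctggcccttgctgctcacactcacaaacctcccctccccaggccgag
Il18bp: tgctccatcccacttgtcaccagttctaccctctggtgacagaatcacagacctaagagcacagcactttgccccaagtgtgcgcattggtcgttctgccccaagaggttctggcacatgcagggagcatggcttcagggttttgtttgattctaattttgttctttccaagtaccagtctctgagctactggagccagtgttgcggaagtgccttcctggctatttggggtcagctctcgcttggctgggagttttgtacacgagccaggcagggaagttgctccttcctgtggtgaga
Counted from the start that each window surrounds, the Il6 window has its AP-1 match at −249 and its NF-kB match at −44. The Lif window has its AP-1 match at −228 and its NF-kB match at −178. The Il11 match, an AP-1 match, is at −98, and the Il18bp window holds no match. The starts of these Il11 and Il18bp windows lie inside the gene spans given above. The first Il11 window, at chr7:4782808-4783107 minus, holds no match either, and Il18bp had no other window. A match describes the letters only.

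Levels were compared between genes per length, as TPM, in which counts per base of exon are scaled to the same total in every library. Il18bp stood first in day 7 GFP cells at 186 ± 12.9 TPM (SD, n = 3), followed by Il11 at 65.5 ± 2.44, Il18 at 46.2 ± 4.33 and Lif at 18.2 ± 2.87 TPM. The ranges of these 4 did not overlap. In day 7 mCherry cells Il11 stood first at 90.8 ± 29.1 TPM, and the ranges of each neighbouring pair overlapped down through Il18, Il18bp, Il33, Il1b and Lif. The mCherry library of tumour 4 was low there by TPM, with 58.8 TPM of Il11 where tumours 2 and 3 had 116 and 97.8 TPM. By CPM it was not low, at 90.1 CPM of Il11 where tumours 2 and 3 had 103 and 87.2 CPM. Without that library the order of the mean TPM was the same and Il11 averaged 107 TPM. In day 15 mCherry cells Il11 at 201 ± 26.0 TPM lay above Lif at 110 ± 41.6 TPM with no overlap, and both lay above Il18, Il33 and Il18bp at 24.4 to 33.3 TPM on average. In day 15 GFP cells the order was Il11 at 95.8 ± 21.2, Il18bp at 60.6 ± 24.6 and Lif at 48.6 ± 8.86 TPM, and these neighbours overlapped. The control order (n = 4) was Il11 at 162 ± 42.0, Lif at 93.2 ± 28.3 and Il18bp at 36.8 ± 20.1 TPM, and every neighbouring pair overlapped. Il1rl1 had the lowest mean in all 5 groups, between 0.0493 and 0.394 TPM.

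**Figure D1:**
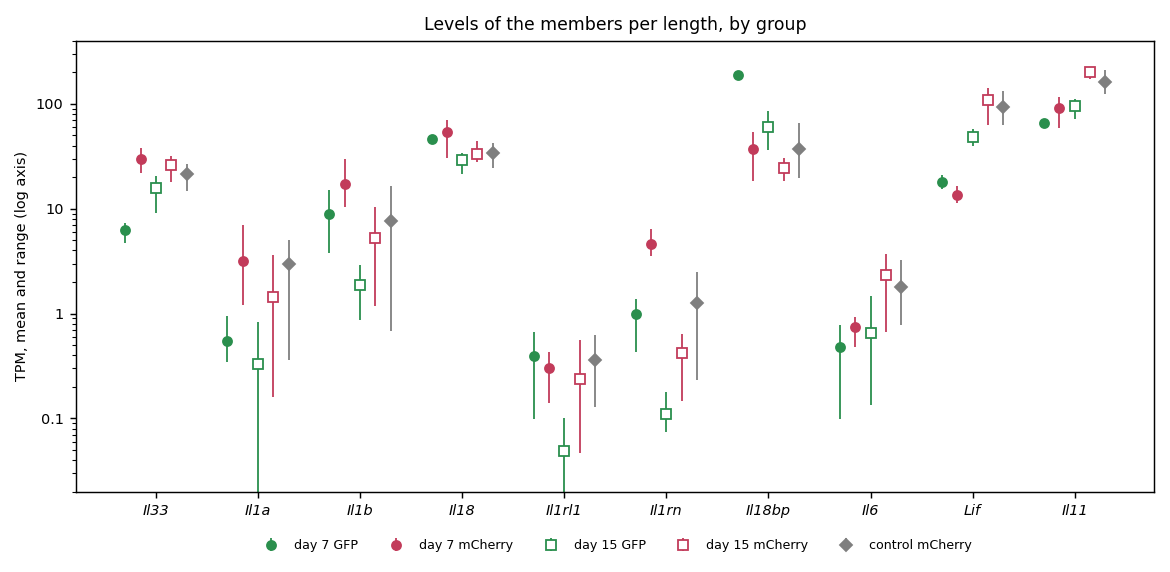
Mean level of each cytokine gene in the 5 groups, in TPM on a log axis, with bars for the range over libraries (n = 3, and n = 4 in controls). Il18bp is first in day 7 GFP cells at 186 TPM, and Il11 is first in the other 4 groups, with means of 90.8 to 201 TPM.

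On day 7, inhibitor and ligand genes moved in both directions in surviving GFP cells relative to the mCherry cells of the same tumours. Il18bp rose 4.59-fold, while Il33, Il1rn, Il1a, Il1b and Il11 fell. All 10 genes were tested, and 6 changed by edgeR's quasi-likelihood test with the tumour as a block and an adjusted p under 0.05, where 18.2% of 14578 genes did. Of these, 1 was higher and 5 were lower, where 8.89% of all genes were higher and 9.33% lower. The median log2 fold change of the 10 was −0.79, and that of all genes tested was −0.00. Without tumour 4 the day 7 count was 7, with Il18 added, where 4558 of 14784 genes were called. On day 15, 7 of the 10 passed the filter on low counts, and 4 of those 7 changed, where 19.5% of 14260 genes did. Il18bp again rose, and Il11, Lif and Il1b fell, giving 1 higher and 3 lower where 8.94% of genes were higher and 10.6% lower. Their median was −1.03, and that of all genes was 0.01. Without tumour 2 the day 15 count was 7, with Il33 and Il6 among the genes called. Over all genes, 2520 of 14404 were called in that fit.

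**Figure D2:**
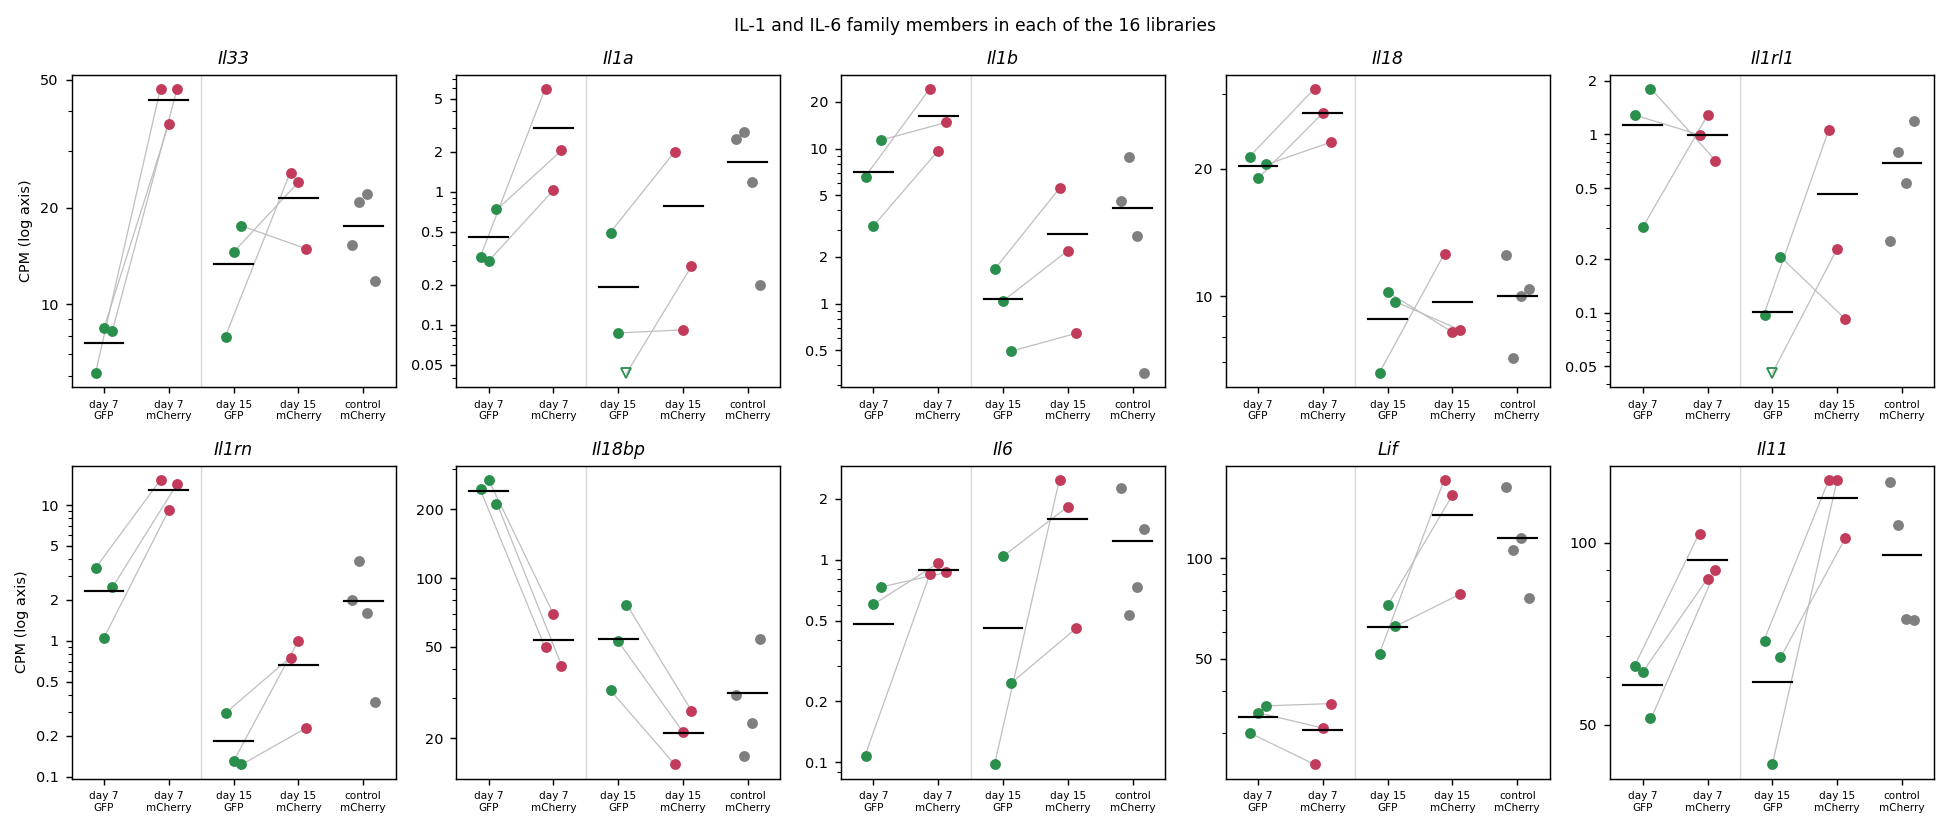
CPM of the 10 genes in each of the 16 libraries, on a log axis per gene. Points are libraries, grey lines join the GFP and mCherry cells of a tumour, black bars are group means, and an open triangle at the lower edge marks a library with no count. Il18bp is higher in GFP cells in all 6 tumours and Il11 is lower in all 6.

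**Figure D3:**
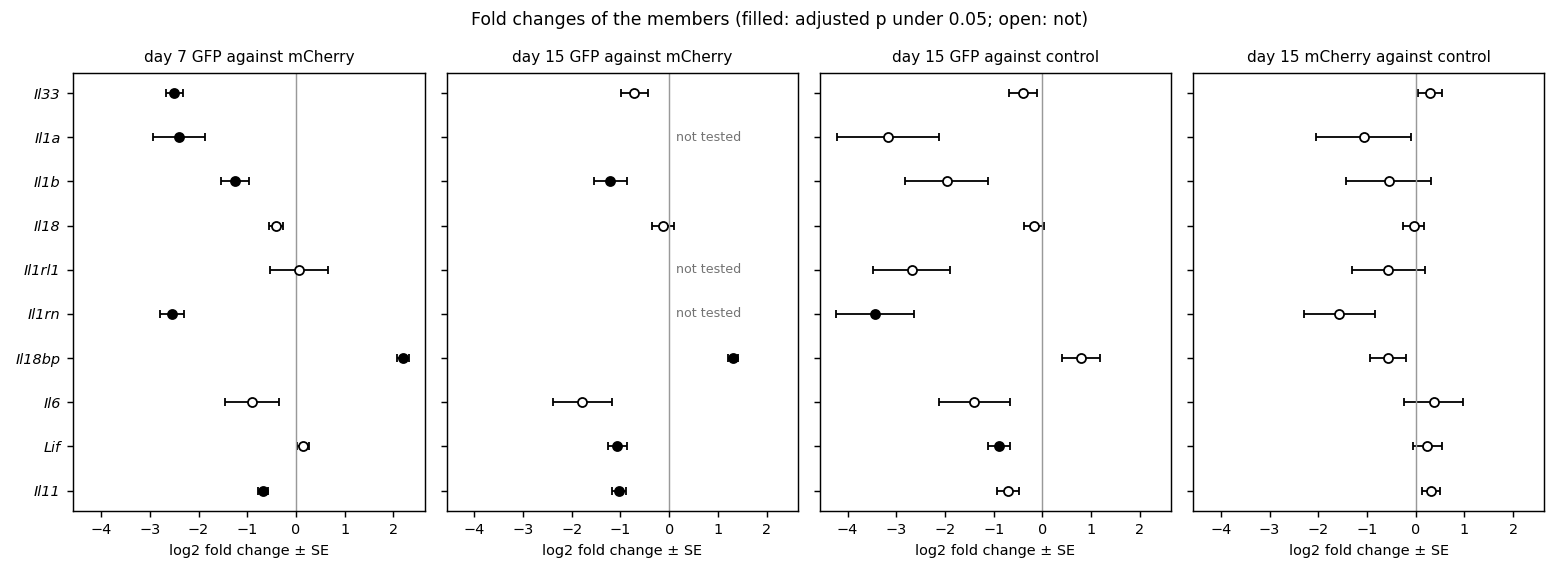
Log2 fold change of each gene with its SE in 4 comparisons: GFP against mCherry on day 7 and on day 15, then day 15 GFP and day 15 mCherry against control. Filled points passed an adjusted p of 0.05, open points did not, and genes under the filter on low counts are marked as not tested. The filled points number 6, 4, 2 and 0.

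Among the IL-1 family ligands, Il33 encodes IL-33, a nuclear alarmin released by damaged cells. On day 7 it had 6.12, 8.43 and 8.29 CPM in the GFP libraries of tumours 2, 3 and 4, and 46.8, 36.5 and 46.9 CPM in their mCherry libraries. Every GFP library was below every mCherry library. The log2 fold change was −2.50 ± 0.18 (SE), and the adjusted p was 2.31e-05. On day 15 Il33 had 7.91, 14.6 and 17.5 CPM in GFP cells of tumours 1, 2 and 3, against 25.7, 24.0 and 14.9 CPM in mCherry cells. It was lower in GFP cells of tumours 1 and 2 and higher in tumour 3, and the groups overlapped. The log2 fold change there was −0.71 ± 0.27 and did not pass (adjusted p = 0.0975). The value moved with single tumours: it was −0.26 without tumour 1 (adjusted p = 0.396), −0.70 without tumour 2 (adjusted p = 0.00291) and −1.19 without tumour 3 (adjusted p = 0.00495). The control libraries had 15.3, 20.9, 22.1 and 11.8 CPM, a range that both day 15 groups overlapped.

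Il1a and Il1b encode the 2 agonists of the IL-1 receptor, IL-1α and IL-1β. Il1a was rare: on day 7 GFP libraries had 0.322, 0.301 and 0.735 CPM (3, 4 and 11 counts), and mCherry libraries had 5.92, 1.03 and 2.05 CPM (119, 16 and 26 counts). Groups did not overlap, with the mCherry library of tumour 2 standing highest, and the log2 fold change was −2.41 ± 0.53 (adjusted p = 0.0121). Without tumour 2 it was −1.56 with an adjusted p of 0.111. On day 15 Il1a had 0.488, 0.0867 and 0 CPM in GFP libraries, against 1.99, 0.0915 and 0.276 CPM in mCherry libraries, and was not tested. The library at 0, the GFP cells of tumour 3, allows up to 0.121 CPM, the value of 3 counts, which covers counting error only. The control libraries had 2.47, 2.79, 1.17 and 0.198 CPM of Il1a.

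Il1b had 6.55, 3.16 and 11.4 CPM in day 7 GFP libraries, against 24.3, 9.68 and 14.7 CPM in day 7 mCherry libraries. The groups overlapped because tumours differed, but Il1b was lower in GFP cells within 3 of 3 tumours. The log2 fold change was −1.25 ± 0.28 (adjusted p = 0.0132). This call needed the block (adjusted p = 0.0861 when tumours were not paired) and tumour 3 (adjusted p = 0.0579 when it was left out). On day 15 Il1b had 1.66, 1.04 and 0.493 CPM in GFP libraries, against 5.53, 2.19 and 0.643 CPM in mCherry libraries. Again the groups overlapped and 3 of 3 tumours had the lower value in GFP cells. Of all genes tested, 26.3% were lower in every tumour on day 7 and 26.8% on day 15, and 26.0% and 28.2% were higher in every tumour. The log2 fold change on day 15 was −1.21 ± 0.33 (adjusted p = 0.0301), and it did not pass with tumours unpaired (adjusted p = 0.201) or with tumour 1 left out (−0.82, adjusted p = 0.243). Control libraries had 4.60, 8.76, 2.71 and 0.356 CPM of Il1b.

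Il18 encodes IL-18, which with IL-12 drives interferon-γ production by T and NK cells. Its day 7 values were 21.4, 19.0 and 20.5 CPM in GFP libraries and 30.9, 27.1 and 23.1 CPM in mCherry libraries. The groups did not overlap, yet the log2 fold change of −0.41 ± 0.14 did not pass (adjusted p = 0.0775), and it did pass without tumour 4 (adjusted p = 0.0103). On day 15 Il18 had 6.59, 10.2 and 9.70 CPM in GFP libraries and 12.6, 8.23 and 8.31 CPM in mCherry libraries. Tumour 1 had the lower value in GFP cells and the other 2 tumours the higher one, and the log2 fold change was −0.13 ± 0.23 (adjusted p = 0.731). Control libraries had 7.16 to 12.5 CPM.

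The receptor gene Il1rl1 encodes ST2, in a membrane form that signals and a soluble form that binds IL-33 as a decoy, which gene counts do not separate. It had 1.29, 0.301 and 1.80 CPM in day 7 GFP libraries and 0.995, 1.28 and 0.710 CPM in day 7 mCherry libraries, each from 4 to 27 counts. The groups overlapped, and the log2 fold change of 0.06 ± 0.59 (adjusted p = 0.962) could not be told from a change in either direction at this depth. On day 15 the values were 0.0977, 0 and 0.205 CPM in GFP libraries and 1.06, 0.229 and 0.0918 CPM in mCherry libraries, too low to test. The GFP library of tumour 2, at 0, allows up to 0.129 CPM. Control libraries had 0.254, 0.802, 0.536 and 1.19 CPM.

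Of the inhibitors, Il18bp encodes a secreted protein that binds IL-18 and keeps it from its receptor. It had 244, 268 and 211 CPM in day 7 GFP libraries, against 49.8, 69.6 and 41.2 CPM in day 7 mCherry libraries. The lowest GFP library lay well above the highest mCherry library, and each tumour showed a difference of 1.94 to 2.36 on the log2 scale. The fitted log2 fold change was 2.20 ± 0.12 (adjusted p = 5.58e-06). On day 15 the values were 32.5, 52.9 and 76.6 CPM in GFP libraries, against 15.3, 21.2 and 26.3 CPM in mCherry libraries. These groups did not overlap either, and the log2 fold change was 1.31 ± 0.11 (adjusted p = 6.44e-05), a 2.49-fold rise. Control libraries had 31.0, 16.6, 23.4 and 54.4 CPM, overlapping both day 15 groups. The sums of 12 macrophage markers printed above lay lower in GFP than in mCherry libraries on both days. Without Cd14, the day 15 sums of the other 11 markers overlapped, at up to 21.7 CPM in GFP and from 19.1 CPM in mCherry libraries. The part of macrophages in the Il18bp values was not tested.

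Il1rn encodes the IL-1 receptor antagonist, which occupies the IL-1 receptor without signalling. In day 7 GFP libraries it had 3.43, 1.05 and 2.47 CPM, against 15.3, 9.17 and 14.4 CPM in mCherry libraries. The groups did not overlap, and the log2 fold change was −2.55 ± 0.24 (adjusted p = 0.000117), a 5.85-fold fall. On day 15 it had 0.293, 0.130 and 0.123 CPM in GFP libraries (6, 3 and 3 counts) and 0.752, 1.01 and 0.230 CPM in mCherry libraries (17, 22 and 5 counts). It was under the filter there, although each tumour had the lower value in GFP cells. Control libraries had 2.00, 3.89, 1.61 and 0.356 CPM, so the control with the least Il1rn was also the one with the least Il1a and Il1b.

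Il1rn, Il1a, Il1b, Il33 and Il11 were lower in day 7 GFP cells, and so were transcripts of some other cell types. All 12 macrophage markers fell in GFP cells on that day, with a median log2 fold change of −2.62. So did 9 of 9 tested endothelial markers, with a median of −3.50, where 9.33% of all genes were lower. Of 6 tested fibroblast and pericyte markers, 1 fell, and their median was −0.35. The endothelial sum was 5.95 to 7.00 CPM in day 7 GFP libraries and 30.3 to 57.5 CPM in day 7 mCherry libraries. The neutrophil sum was 5.28 to 13.2 CPM and 10.2 to 39.9 CPM in the same groups, with Ly6g at 0 in 11 of 16 libraries. Of 3 tested neutrophil markers, 1 fell on day 7, and their median was −0.14. S100a8 averaged 7.59 CPM in day 7 GFP and 20.8 CPM in day 7 mCherry libraries, and S100a9 averaged 1.58 and 1.11 CPM. Ptprc had 0.753 to 1.87 CPM in day 7 GFP libraries and 4.87 to 10.4 CPM in day 7 mCherry libraries. On day 15, 6 of 10 tested macrophage markers fell, with a median of −0.82. So did 2 of 3 tested neutrophil markers, with a median of −1.59, and 4 of 11 endothelial markers, with a median of −1.06. Over all genes, 10.6% were lower on day 15. The part of these cells in the cytokine values was not tested. In bulk libraries, fewer cells of a type and less RNA per cell cannot be told apart.

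**Figure D4:**
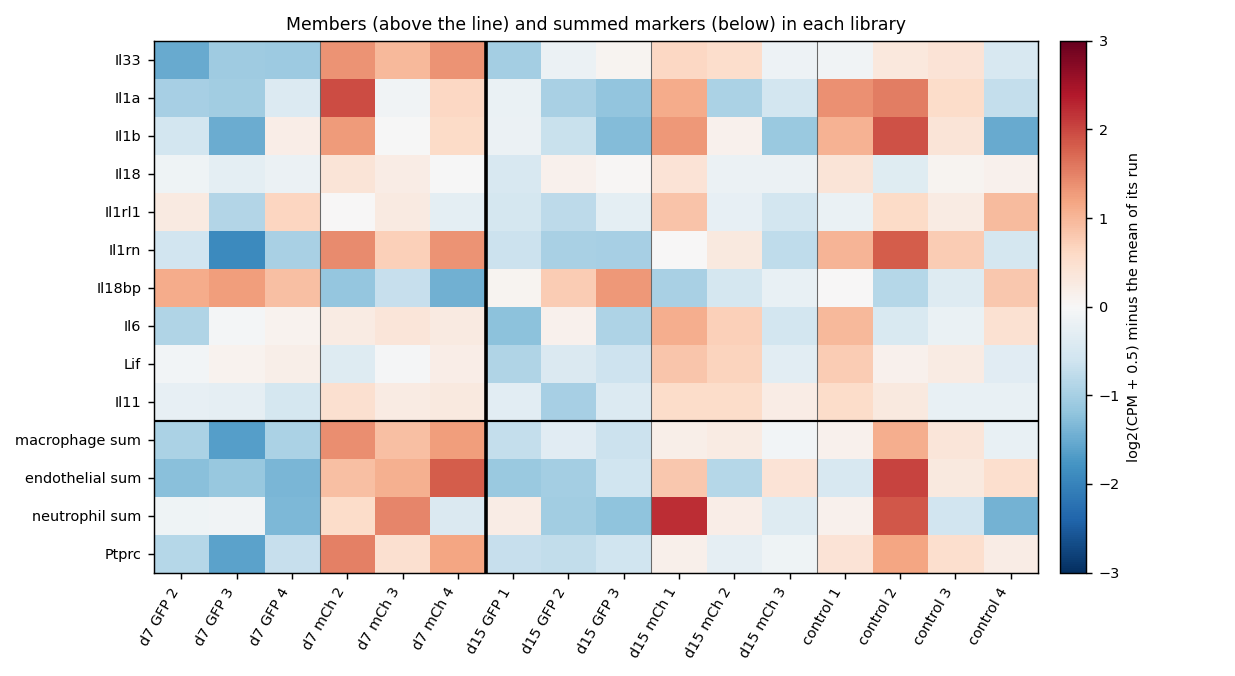
Heat map of log2(CPM + 0.5) minus the gene's mean in its sequencing run, for the 10 cytokine genes (above the line) and for the summed macrophage, endothelial and neutrophil markers and Ptprc (below it), with libraries in columns by group. On day 7 Il33, Il1rn and the macrophage sum are low in GFP and high in mCherry columns, and Il18bp is the other way round.

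In the IL-6 family, Lif encodes leukaemia inhibitory factor. On day 7 it had 29.9, 34.4 and 36.1 CPM in GFP libraries and 24.1, 31.0 and 36.7 CPM in mCherry libraries, with overlap. The log2 fold change was 0.15 ± 0.13 and did not pass (adjusted p = 0.476). On day 15 Lif had 51.6, 72.3 and 62.7 CPM in GFP libraries, against 172, 155 and 78.3 CPM in mCherry libraries. The groups did not overlap, the difference within a tumour ran between −1.73 and −0.32, and the log2 fold change was −1.06 ± 0.20 (adjusted p = 0.00519). Control libraries had 164, 106, 115 and 76.0 CPM, all above the 3 day 15 GFP libraries.

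Il11 encodes interleukin 11, a stromal and tumour cytokine that also acts through gp130. It had 62.5, 61.2 and 51.3 CPM in day 7 GFP libraries, against 103, 87.2 and 90.1 CPM in day 7 mCherry libraries. No libraries overlapped, and the log2 fold change was −0.68 ± 0.10 (adjusted p = 0.0019). On day 15 it had 68.9, 43.0 and 64.7 CPM in GFP libraries, against 127, 127 and 102 CPM in mCherry libraries. No libraries overlapped there either, and the log2 fold change was −1.03 ± 0.14 (adjusted p = 0.00109), a 2.05-fold fall. Control libraries had 126, 107, 74.8 and 74.6 CPM, each above the 3 day 15 GFP libraries.

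Il6 encodes interleukin 6. It was near the floor of the data, at 0.107, 0.602 and 0.735 CPM (1, 8 and 11 counts) in day 7 GFP libraries and 0.846, 0.962 and 0.867 CPM (17, 15 and 11 counts) in day 7 mCherry libraries. The groups did not overlap, but the log2 fold change of −0.89 ± 0.56 did not pass (adjusted p = 0.302). On day 15 it had 0.0977, 1.04 and 0.247 CPM in GFP libraries, against 2.48, 1.83 and 0.459 CPM in mCherry libraries. Each tumour had the lower value in GFP cells, the groups overlapped, and the log2 fold change was −1.78 ± 0.60 (adjusted p = 0.0645). Without tumour 1 that value was −0.84 with an adjusted p of 0.269, and without tumour 2 it was −2.71 with an adjusted p of 0.00096. Control libraries had 2.25, 0.535, 0.737 and 1.43 CPM.

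The groups did not overlap on day 7 for 1 gene that was higher in GFP cells (Il18bp) and for 6 that were lower, where 17.0% and 17.3% of genes tested had such separation. On day 15 the same held for Il18bp on the higher side and for Lif and Il11 on the lower side, where 18.0% and 18.4% of genes did. A test of the difference between the 2 days' effects, in 1 fit over both runs, called none of the 10 genes, while 35 of 16626 genes passed (0.211%). By unadjusted p under 0.05, 3 of the 10 and 1703 of all genes differed. Those 3 were Il33 (1.78 ± 0.39 on the log2 scale, day 15 effect minus day 7 effect, adjusted p = 0.100), Il18bp (−0.88 ± 0.16, adjusted p = 0.0552) and Lif (−1.21 ± 0.28, adjusted p = 0.114). DESeq2 called the same 3, with adjusted p of 0.000842, 0.00119 and 0.00423. For Il11 the difference was −0.35 ± 0.20 and for Il1b 0.01, and neither passed by either tool. In each case the day cannot be told apart from the sequencing run.

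The mCherry cells of treated tumours were set against those of control tumours, which had neither GFP cells nor T cell transfer. The question was whether cells that were not the target differed from these control cells. No number of injected cells and no harvest time were available here for the control tumours. None of the 10 genes passed edgeR's test, and none had an unadjusted p under 0.05. Of all 14800 genes tested, 0.0% were called, 2104 had an unadjusted p under 0.05, and DESeq2 called 130 higher and 94 lower, none of them among the 9 cytokine genes it tested. The largest fitted differences were in rare transcripts: Il1rn had a log2 fold change of −1.57 ± 0.73 (adjusted p = 0.362) and Il1a of −1.07. Il18bp had −0.58 ± 0.37 (adjusted p = 0.489), Il33 0.30 ± 0.25 (adjusted p = 0.592), Lif 0.23 ± 0.30 (adjusted p = 0.740) and Il11 0.31 ± 0.19 (adjusted p = 0.458). In this comparison 10 of 11 tested macrophage markers had an unadjusted p under 0.05 and none passed adjustment, with a median of −1.52, and the adipocyte list had 4 of 4 and a median of 1.33. The part of these cells in the Il1rn and Il1a values was not tested. All 10 genes overlapped between these groups, where 7.91% of genes lay wholly higher and 6.47% wholly lower in mCherry cells of treated tumours.

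Day 15 GFP cells, which also differ in reporter, were set against the same 4 control libraries. This comparison shares samples with both of the others on day 15. It called 2 of the 10 genes, both lower, where 13.1% of 14801 genes were called, 6.09% higher and 6.97% lower. Il1rn was lower by a log2 fold change of −3.44 ± 0.80 (adjusted p = 0.0295), with 3 to 6 counts in the GFP libraries. Lif was lower by −0.89 ± 0.23 (adjusted p = 0.0410). Il11, Il1rl1, Il1rn and Lif had no overlap between the groups, where 15.3% of genes lay wholly lower, but Il11 (−0.70 ± 0.22, adjusted p = 0.0694) and Il1rl1 (−2.69 ± 0.79, adjusted p = 0.0553) did not pass. Il18bp had 0.79 ± 0.39 (adjusted p = 0.198) and Il33 −0.39 ± 0.29 (adjusted p = 0.376). Both calls were lost without any 1 of the 3 GFP libraries, with adjusted p of 0.0831 to 0.0960 for Il1rn and 0.0809 to 0.141 for Lif, and Lif's also without control 2 (0.0609) or control 3 (0.0821), and when the run 2 libraries were fitted together (0.0527). Il1rn came under the filter on low counts without control 1, 2 or 3. Without control 4, 6 of the 10 genes passed, where 2093 of 14753 genes did. With all libraries, 8 of 11 tested macrophage markers fell in day 15 GFP cells relative to control.

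Receptors and partners of these cytokines came from 6 lists of pathway genes. Their counts stand beside the shares over all genes, which were 18.2% called on day 7 (8.89% higher, 9.33% lower) and 19.5% on day 15 (8.94% higher, 10.6% lower). Il1r1, the signalling receptor for IL-1α and IL-1β, fell on both days. It averaged 17.3 ± 4.41 CPM in day 7 GFP cells and 55.9 ± 8.95 CPM in day 7 mCherry cells (SD, n = 3 each; log2 fold change −1.71 ± 0.13, adjusted p = 2.77e-05). The day 15 averages were 41.0 ± 10.4 CPM (GFP) and 107 ± 20.5 CPM (mCherry) (−1.40 ± 0.16, adjusted p = 0.000388). Il1rap, the co-receptor of IL-1 and IL-33, had −0.11 on day 7 (adjusted p = 0.569) and fell on day 15 by 0.47 on the log2 scale (adjusted p = 0.00325). Il18rap, the second chain of the IL-18 receptor, had −0.78 on day 7 (adjusted p = 0.253) and fell on day 15, with 1.38 ± 0.540 CPM in GFP libraries and 3.12 ± 0.843 CPM in mCherry libraries (adjusted p = 0.0157). Il18r1, its binding chain, was too low to test on either day. Of the 12 other IL-1 family ligands and receptors, 1 of 5 tested fell on day 7 and 3 of 4 tested fell on day 15, none rose, and the list medians were −0.25 and −0.83 beside −0.00 and 0.01 for all genes. Without tumour 4, 2 of this list were called on day 7, where 4558 of 14784 genes were.

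Of 11 inflammasome and processing genes, 6 were tested on day 7 and 2 fell, P2rx7 and Aim2, and 5 were tested on day 15 and P2rx7 fell. P2rx7, the ATP-gated channel that triggers inflammasomes, averaged 10.0 ± 1.93 CPM in day 7 GFP cells and 17.4 ± 1.45 CPM in day 7 mCherry cells (adjusted p = 0.0092). The day 15 averages were 19.0 ± 2.54 CPM for GFP and 34.7 ± 2.42 CPM for mCherry libraries (adjusted p = 0.000347). The DNA sensor Aim2 fell on day 7 (−0.87 ± 0.19, adjusted p = 0.0127), and had −0.24 on day 15 (adjusted p = 0.205). Casp1, the protease that cuts both precursors, had 0.25 on day 7 and 0.22 on day 15 and did not pass on either day (adjusted p = 0.113 and 0.0739). The shares called, 2 of 6 and 1 of 5, stood beside 18.2% and 19.5% of all genes. The list medians were −0.58 on day 7 and −0.01 on day 15. On day 7 without tumour 4, 4 of the list were called, where 4558 of 14784 genes were.

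Of 13 MyD88 and IRAK signalling genes, 11 were tested on each day. Irak2 and Traf6 rose on day 7, and Irak2, Traf6 and Tollip rose on day 15, with list medians of 0.15 and 0.11. These counts, 2 of 11 and 3 of 11, were near the 18.2% and 19.5% of all genes called. Irak2, a kinase of the receptor complex, averaged 62.3 ± 10.7 CPM in day 7 GFP cells and 41.4 ± 7.92 CPM in day 7 mCherry cells (0.59 ± 0.11, adjusted p = 0.00448), and the day 15 log2 fold change was 0.40 ± 0.10 (adjusted p = 0.0185). The adaptor Myd88 itself had −0.07 on day 7 and 0.03 on day 15 (adjusted p = 0.707 and 0.875). Of this list, 1 gene was called on day 7 without tumour 2 or tumour 3. On day 15 the call count was 1 without tumour 1 and 0 without tumour 3. Over all genes, those day 7 fits called 1753 of 14702 and 1156 of 14877. Those of day 15 called 2546 of 14372 and 1736 of 14426.

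Among 15 other IL-6 family ligands and receptors, 9 were tested on each day, with list medians of −0.11 on day 7 and 0.10 on day 15. Clcf1, a cytokine of the family, rose, at 73.5 ± 12.2 CPM in day 7 GFP cells and 39.9 ± 3.56 CPM in day 7 mCherry cells (adjusted p = 0.000893), and with a log2 fold change of 0.42 ± 0.10 on day 15 (adjusted p = 0.0162). Osm, oncostatin M, fell on day 7 (−1.92 ± 0.36, adjusted p = 0.00545), and its receptor chain Osmr rose on day 15 (0.33 ± 0.10, adjusted p = 0.0455). The shared chain Il6st (0.16 and 0.05 on days 7 and 15), Il6ra (−0.11 and 0.10) and Il11ra1 (0.13 and 0.34) passed on neither day. Lifr was tested on day 15 only, with 1.37 ± 1.58 CPM in GFP libraries and 0.517 ± 0.257 CPM in mCherry libraries (adjusted p = 0.314).

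Of 8 JAK and STAT3 genes, all tested on both days, 2 rose on day 7 (Socs1 and Pias3) and 3 on day 15 (also Tyk2), and none fell, where 18.2% and 19.5% of all genes were called. Socs1, a feedback inhibitor of JAK kinases, averaged 73.3 ± 3.31 CPM in day 7 GFP cells and 24.2 ± 4.51 CPM in day 7 mCherry cells (1.61 ± 0.13, adjusted p = 4.92e-05). It averaged 51.6 ± 24.1 CPM in day 15 GFP cells and 27.3 ± 5.76 CPM in day 15 mCherry cells (0.84 ± 0.13, adjusted p = 0.00198). Socs3, the inhibitor that acts on gp130, had 0.20 and 0.16 on the 2 days and Stat3 0.25 and 0.10, and neither passed (adjusted p between 0.157 and 0.400). The list medians were 0.23 and 0.13, beside −0.00 and 0.01 for all genes. The day 7 count was 1 without tumour 3 and 5 without tumour 4. Over all genes, 1156 of 14877 and 4558 of 14784 were called in those fits.

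Of 20 genes that IL-1 or IL-6 are known to induce, 19 were tested on each day. On day 7, 2 rose and 8 fell, and on day 15, 1 rose and 10 fell, with list medians of −0.42 and −0.38. Over all genes, 8.89% were higher and 9.33% lower on day 7, and 8.94% and 10.6% on day 15. Ptgs2, which encodes cyclooxygenase 2, was the one that rose on both days. It averaged 709 ± 121 CPM in day 7 GFP cells and 324 ± 37.1 CPM in day 7 mCherry cells (1.12 ± 0.12, adjusted p = 0.000199). Its average was 1204 ± 125 CPM in day 15 GFP cells and 698 ± 168 CPM in day 15 mCherry cells (0.80 ± 0.15, adjusted p = 0.00495). The neutrophil chemokine Cxcl1 fell on day 7 (−1.37 ± 0.17, adjusted p = 0.000523) and on day 15 (−1.60 ± 0.21, adjusted p = 0.000781). Hp, an acute phase protein, fell on day 7 (−1.55 ± 0.18, adjusted p = 0.000363). The matrix proteases Mmp3 (−1.07 ± 0.08, adjusted p = 4.10e-05) and Mmp13 (−1.21 ± 0.13, adjusted p = 0.000219) fell on day 15, as did Nfkbia, the NF-kB inhibitor (−0.60 ± 0.08, adjusted p = 0.000685). Without the tumour block, 3 of these genes were called on day 7 and 5 on day 15, where 2159 of 14578 and 2059 of 14260 genes were. Without tumour 3 the day 7 count was 6, where 1156 of 14877 genes were called.

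**Figure D5:**
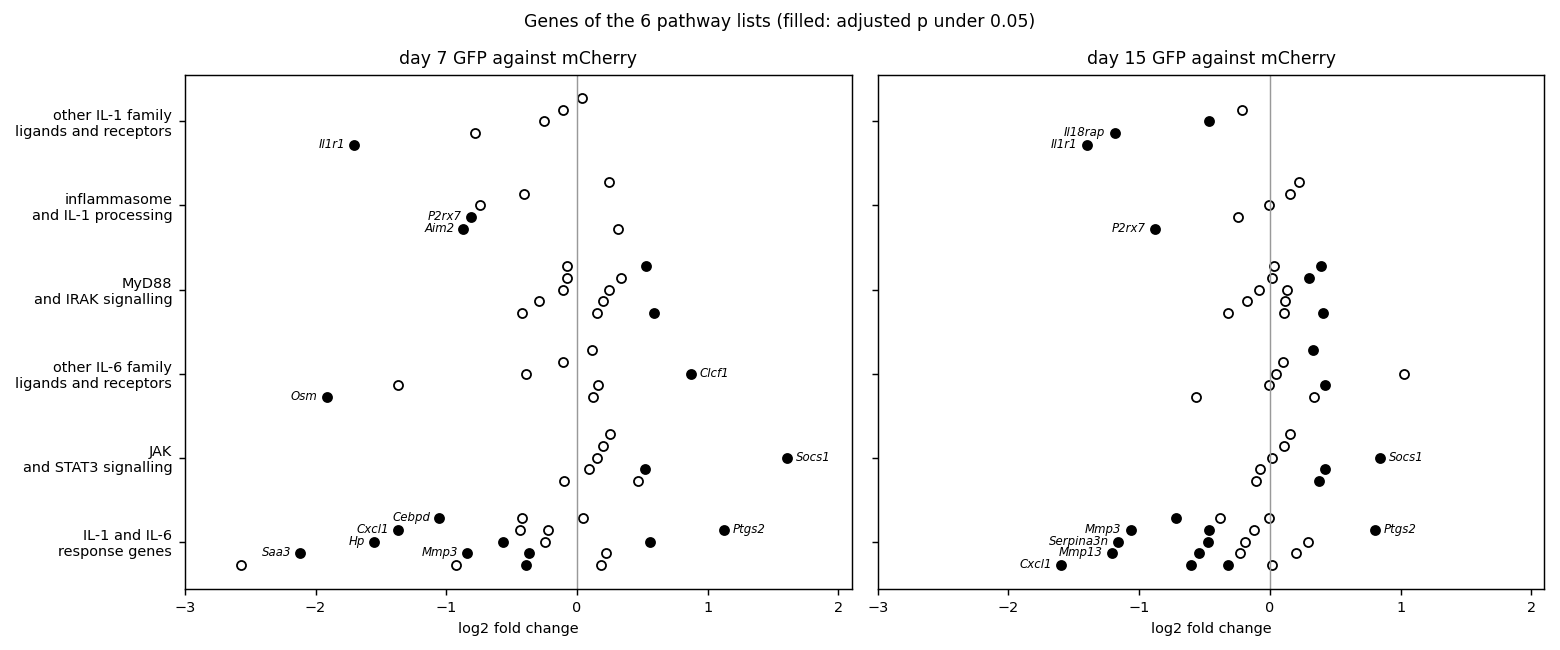
Log2 fold change, GFP over mCherry, of tested genes of the 6 pathway lists on day 7 and day 15, with 1 gene not shown; each point is a gene and filled points passed an adjusted p of 0.05. Filled points of the JAK and STAT3 list and of the MyD88 and IRAK list are all above 0 on both days, and those of the response gene list are mostly below 0 (8 of 10 and 10 of 11).

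Likeness of pattern was taken as Pearson's r over the 16 libraries of log2 CPM centred within each run, among 11085 genes. Points share tumours, runs and depth, so r is given as a description. Il18bp was most like Igtp (0.991), Irgm2 (0.990) and Gbp2b (0.988). Il1rn was most like Lcp1 (0.979), C1qb (0.948) and Apoe (0.921), and C1qb is one of the 12 macrophage markers summed above. Il33 was most like Galnt4 (0.919), Pmvk (0.910) and Usmg5 (0.909), and Il11 was like Ibsp (0.891) and Arpc2 (0.878). Lif was most like Nsd1 (0.852), Kctd5 (0.831) and Col6a3 (0.825), Il18 most like Ints4 (0.842), Lhpp (0.841) and Med30 (0.769), and Il1b most like Cxcl2 (0.804), Lcp1 (0.795) and B130046B21Rik (0.791). For the rarer Il6 the genes were Stk40 (0.863), Ccl2 (0.855) and Dusp14 (0.847), for Il1a Pfkfb4 (0.874), Fcgr2b (0.857) and Dnajc7 (0.848), and for Il1rl1 Gm10138 (0.860), Ccdc74a (0.824) and Cish (0.809). Among the cytokines themselves, Il18bp ran opposite to Il33 (r = −0.825), Il1rn (r = −0.807) and Il11 (r = −0.754). By Spearman's rho, 10 of the 30 gene pairs stayed among the 3 most alike.

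The authors' deposited table for day 7 lists all 10 genes and gives 6 an adjusted p under 0.05, with log2 fold changes of −2.50 for Il33 and 2.20 for Il18bp. The authors' deposited table for day 15 lists 8 of the 10 and calls 3: Il18bp, Lif (−1.06, adjusted p = 0.0462) and Il11 (−1.03). In the authors' deposited table Il1b has an adjusted p of 0.0746 and Il6 of 0.0560 on day 15. Its header does not state the direction of the ratio, and the signs are those of GFP over mCherry.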

How the data were processed

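Bulk RNA-seq of 16 sorted libraries was analysed from raw counts per gene. Per the labels' protocols, cells came from tumours digested for 20 min at 37 °C, RNA was made with a miRNeasy Micro kit or a low input service, and the sequencing provider made the count matrices that the authors deposited. The submitters' processing notes name mm10 and DESeq2; no aligner or annotation is named in the sources used here. Per the file headers, the authors' deposited DESeq2 tables hold a mean normalized signal (baseMean), a log2 fold change with its SE, a test score (stat), and p-values with adjusted p-values, quoted only where named.

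Library columns were matched to the labels, and no per-sample column was left unused. Day 7 columns carry the numbers 2 to 4 where the labels have 1 to 3, so they were matched by group, and GFP and mCherry columns of the same number were taken as one tumour. Control columns were also matched by group, since their numbers differ from those of the labels. Controls are numbered here as in the count table. The study design makes mCherry cells the paired comparison. Residuals of same-number libraries correlated at 0.110 to 0.162 on day 7 and 0.0896 to 0.232 on day 15, against −0.130 to 0.00919 and −0.183 to 0.0186 for other pairs. Libraries of a group differed by more than counting noise (chi-square per degree of freedom 5.34 to 92.1).

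Of 49315 rows, 176 without a symbol (at most 0.0110% of counts) were dropped, and 49139 were kept. Each comparison was tested with edgeR 4.0.16 in R 4.3.3: filterByExpr (minimum count 10, minimum total 15), TMM, quasi-likelihood F test, Benjamini-Hochberg adjustment over all genes tested, threshold 0.05, and the tumour as a block within a day (2 residual degrees of freedom). The SE is the log2 fold change divided by the square root of F. CPM were scaled by TMM within each table, since the runs were normalized separately, log2 CPM used a prior count of 2, and TPM used merged exon lengths of GENCODE M21, which holds 49054 of the gene IDs. Floors of 3 counts cover counting error only. The test code was checked on simulated counts. DESeq2 1.42.0, other filters, fits without the block and leaving out each library were alternatives.

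The 10 genes, the 6 pathway lists and the 10 cell type lists were chosen with earlier results of these data known. The text names the 10 cytokine genes, the 3 list genes of smallest p in each list and day, 11 preset receptors and signalling genes, and the 3 most alike genes for each cytokine that passed the filter in both tables. One gene that this rule names is not reported here. The members of the Il36 group were matched by older symbols.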

Additional observations from a re-analysis of the deposited data

How the results depend on the processing

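The count of cytokine genes called within tumours was 6 on day 7 and 5 to 7 under the alternatives tried, with 5 when no replicate block was used. On day 15 it was 4, with 7 when no filter on low counts was applied, 3 with no replicate block, 3 with DESeq2 and 3 to 7 when each tumour was left out in turn. In mCherry cells against control it was 0 under every alternative. In GFP cells against control it was 2, with 4 by DESeq2, 5 with no filter, 1 with a filter of 50 counts and 0 to 6 when each library was left out. For the difference between days it was 0, with 3 by DESeq2, 3 with no filter, 0 with no replicate block and 0 to 1 when each tumour was left out. The calls of Il33, Il1rn, Il18bp and Il11 on day 7 and of Il18bp, Lif and Il11 on day 15 were kept under every alternative that tested them. Of 468 alternative values of the cytokine genes, 410 kept direction and side of the threshold, 16 lost the call, 26 gained one and 16 changed sign. On day 7 Il1rl1 had −0.014 by DESeq2, and with each tumour left out it had −0.65 to 0.85 (−0.099 without tumour 2), Il11ra1 −0.043 to 0.23 and Il6ra −0.23 to 0.034. On day 15 Il18 had −0.35 to 0.26 and Myd88 −0.068 to 0.087. In mCherry cells against control, leaving out each library gave Il6 −0.11 to 0.83, Il18 −0.27 to 0.075 and Il1b −1.53 to 0.12. For the difference between days it gave Il1b −0.30 to 0.54 (−0.22 with no replicate block, −0.14 without tumour 3 of day 7, and −0.078 and −0.21 without tumours 2 and 3 of day 15), Il1a −0.41 to 1.15 and Il6 −1.77 to 0.052. Scaling by DESeq2 size factors changed none of the 5 counts of called cytokine genes. The number of all genes called without 1 tumour ran between 1156 and 4558 on day 7, against 2656 with all 3. On day 15 it ran between 1736 and 2546, against 2782. In GFP cells against control it ran between 287 and 2093 without 1 library, against 1933. Of the pathway lists, the inflammasome list had 4 calls in place of 2 on day 7 with no filter. With no replicate block the JAK list had 1 in place of 2 on day 7 and the MyD88 list 1 in place of 3 on day 15. The response list had 4 in place of 11 on day 15 when all 10 libraries of run 2 were fitted together. Over all genes, those fits called 3177 of 32816, 2159 of 14578, 2059 of 14260 and 2058 of 15093, in that order. The marker sum without Cd14 and the day 7 mCherry TPM without tumour 4 were chosen after seeing the data. The causes of these changes were not tested. Low counts of Il1rl1, Il1a, Il1rn and Il6 limit what can be said of them.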

Other observations

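The IL-1 genes differed among the 4 control tumours, which received no T cells. Control 2 had 2.79 CPM of Il1a, 8.76 CPM of Il1b and 3.89 CPM of Il1rn, and control 4 had 0.198, 0.356 and 0.356 CPM. The same 2 libraries held the highest and lowest macrophage sums of the group, 198 and 78.3 CPM, and the highest and lowest neutrophil sums, 14.0 and 0.990 CPM. Il18bp ran the other way, with 16.6 CPM in control 2 and 54.4 CPM in control 4. Lif (76.0 CPM), Il11 (74.6 CPM) and Il33 (11.8 CPM) were lowest in control 4, although control 3 had nearly as little Il11 (74.8 CPM).

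Among the day 15 mCherry libraries, tumour 1 held the most Il1a (1.99 CPM), Il1b (5.53 CPM), Il6 (2.48 CPM) and Lif (172 CPM). It also held the highest neutrophil sum, 17.9 CPM, where the other 2 tumours had 4.07 and 2.57 CPM. S100a8 and S100a9 made up most of that sum, with group means of 3.85 and 2.66 CPM, beside 0.0147 CPM for Ly6g. Tumour 1 had the highest endothelial sum too, 37.5 CPM, but tumour 2 had the highest macrophage sum, 109 CPM against 104 CPM in tumour 1. The part of these cell types in the cytokine values was not tested.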
